A study of Arabidopsis thaliana with 16 samples.

Results

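Seeds with a paternal excess genome were compared with wild-type seeds across the transcriptome. Of the 27206 genes in the expression table, 19832 had a mean of at least 0.5 RPKM (reads per kilobase of gene, scaled to the mapped reads of the library) in either cross and were described here, and 7374 had less in both. In every cross the mother was *pi-1* in the L*er* accession. This *pistillata* mutant is male-sterile, so that no emasculation was needed. In the cross named wt, the pollen donor was wild-type Col. In the cross named *osd1*, the pollen donor was an *osd1* mutant in Col, whose pollen is diploid because the second meiotic division is skipped. The seeds of that cross are triploid, with an endosperm that received an extra paternal genome. A further cross, *phe1 phe2 osd1*, used pollen that was also mutant for the MADS-box genes *PHE1* and *PHE2*. Its libraries shared the estimate of the spread and are given only beside single genes. Each cross had 2 libraries of poly(A) RNA from whole seeds at 6 days after pollination (DAP), described as biological replicates with seeds pooled over siliques. The seeds were taken whole, so that endosperm, embryo and the maternal seed coat were measured together, and fewer cells of a tissue cannot be told apart from less RNA per cell.

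In *Arabidopsis* the endosperm first divides as a syncytium, then forms cell walls and is consumed by the embryo, which stores oil and protein. The balance of maternal and paternal genomes in the endosperm sets the timing of these steps. In seeds with an excess of paternal genomes, the endosperm is known to stay in the syncytial phase, to fail to cellularise and to leave the embryo arrested. *PHE1*, a paternally expressed imprinted gene, encodes a type I MADS-box transcription factor of the endosperm.

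The labels were not checked by the deleted gene, since the maternal *OSD1* allele is intact in all crosses. *OSD1* (listed as *UVI4-LIKE*), an inhibitor of the anaphase-promoting complex, was still detected and had 7.19 and 6.82 RPKM in wt and 1.56 and 1.41 RPKM in *osd1*. It was lower in both *osd1* libraries than in both wt libraries. *PI* itself was below 0.2 RPKM in all libraries. *PHE1* had 2.92 and 3.1 RPKM in wt and 200.4 and 169 RPKM in *osd1*, with no overlap between the crosses. The steps between low values gave an estimated depth of 16270000 to 18340000 reads. At these depths only 38.1% to 42.6% of the low values came out as whole reads, where 10% would by chance. The *osd1* libraries differed more from each other than the wt libraries did. Between replicates, 8.07% of genes differed by over 1 on the log2 scale in *osd1*, 1.63% in wt and 4.86% in *phe1 phe2 osd1*.

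Genes of many functions differed between the crosses, in both directions. In limma's test on log2(RPKM + 0.5), with Benjamini-Hochberg adjustment over all genes tested, 2543 genes were higher in *osd1* at an adjusted p under 0.05 (12.8% of the genes tested) and 2693 were lower (13.6%). Such genes are referred to as called. All of them differed the same way in all 4 pairs of an *osd1* and a wt library. Without adjustment, 3886 and 4021 genes had a p under 0.05. The median log2 difference was 1.4 for the genes called higher and -1.24 for those called lower, against 0.006 for all genes tested. Large rises outnumbered large falls, with 443 genes up by over 3 on the log2 scale and 240 down by over 3. The genes called higher held 8.94% and 10.4% of the summed RPKM in the wt libraries and 29% and 26.1% in the *osd1* libraries. Those called lower fell from 23.2% and 21.6% to 7.17% and 7.55%. Among the called genes, 106 that rose were listed at 0 in both wt libraries and 74 that fell were listed at 0 in both *osd1* libraries. The number of calls rested on the wt libraries. Without wt replicate 1, 688 genes were called higher and 741 lower. Without wt replicate 2 these counts were 1039 and 1078. Leaving out an *osd1* library gave 2143 to 2300 genes higher and 2272 to 2602 lower. Where leaving out a library moved a list's count by over 1.5 times, the count without that library stands in brackets. Since a called gene differed the same way in all 4 pairs, leaving out a library could not reverse its direction. The rank product test with Benjamini-Hochberg adjustment called 77 genes higher and 68 lower. A gene that passed the filter only through *osd1* had to be higher there, so that the counts of such members are a description.

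**Figure D1:**
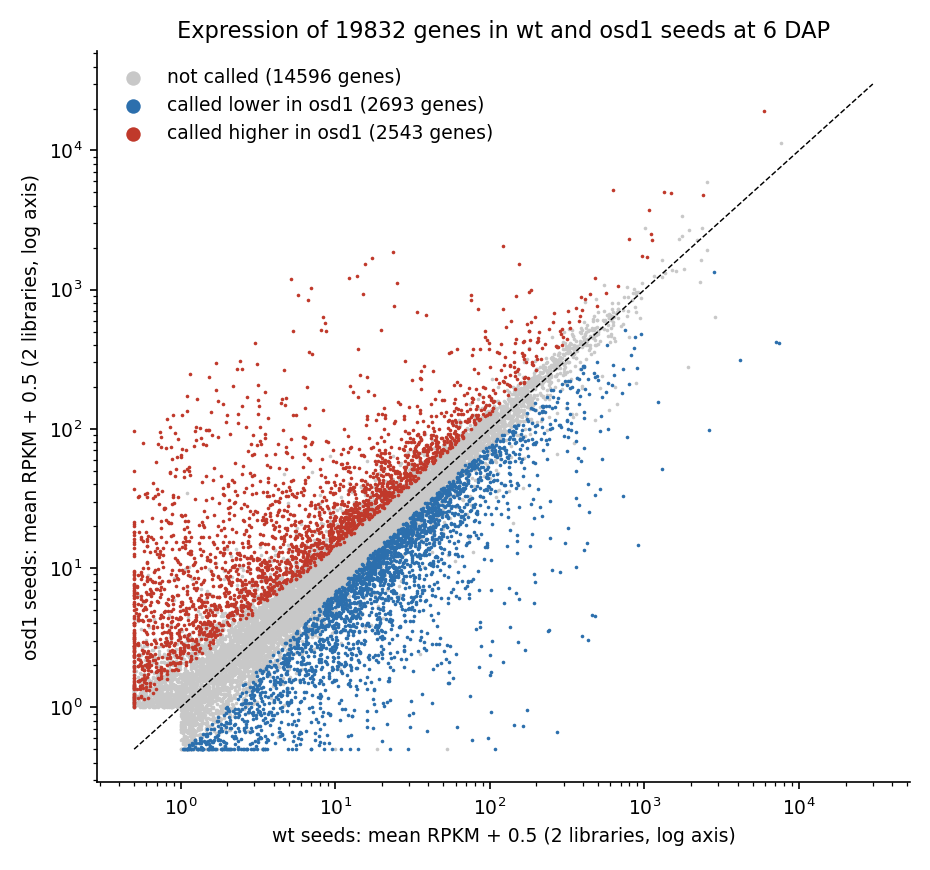
Mean RPKM + 0.5 in wt (x axis) and *osd1* seeds (y axis) for the 19832 genes tested, on log axes. Each point is a gene, the dashed line marks equal levels, and the 2543 genes called higher spread further from the line than the 2693 called lower, mostly at low wt levels.

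The largest rises included genes for small secreted proteins and for wall-loosening proteins that were low in wt seeds. *SCRL10*, a SCR-like cysteine-rich peptide gene, had 3.8 and 5.58 RPKM in wt and 1795 and 596 RPKM in *osd1*. *GH9B9*, which encodes an endoglucanase-type glycosyl hydrolase, had 0.269 and 1.03 RPKM in wt and 433 and 63.3 RPKM in *osd1*. The expansin genes *EXPA23* and *EXPA21*, whose products loosen cell walls, had 3.69 and 6.82 RPKM in wt and 1378 and 455 RPKM in *osd1*, and 5.72 and 7.23 RPKM in wt and 1428 and 634 RPKM in *osd1*, respectively. In all of these genes the *osd1* libraries were far apart, with the higher value in replicate 1, yet both lay above both wt libraries. The other genes among the 12 largest rises were *AT2G02490* (uncharacterised), *AT3G17150* (a pectin methylesterase inhibitor-like gene), *AT5G46810*, *AT4G32378*, *AT1G56233*, *LCR60*, *LCR35* and *AT3G03828*. *AT4G32378* was listed at 0 in both wt libraries and had 165 and 25.2 RPKM in *osd1*. The 12 rises ran from 6.97 to 7.66 on the log2 scale. The calls of *GH9B9* and *LCR60* were lost without wt replicate 1. Of the 50-base stretches in the exons of *EXPA23*, 54.5% also occur elsewhere in the genome, and of those of *GH9B9* 22%, so that their reads may be split with near-identical copies.

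The largest falls were in genes with high levels in wt seeds that all but disappeared. *AT1G50650*, a Stig1-family gene for a small cysteine-rich protein, had 302 and 243 RPKM in wt and 0.108 and 0.222 RPKM in *osd1*, and fell by 8.68 ± 0.70 on the log2 scale (adjusted p = 0.00068). *KCS18*, known as *FAE1*, encodes the elongase that makes the very-long-chain fatty acids of seed oil. It had 123 and 92.2 RPKM in wt and was listed at 0 in both *osd1* libraries, with 0.495 and 7.52 RPKM in *phe1 phe2 osd1*. The subtilase gene *SBTI1.1* had 486 and 382 RPKM in wt and 1.66 and 3.38 RPKM in *osd1*. *GA20OX3*, which encodes a gibberellin biosynthesis oxidase, had 495 and 418 RPKM in wt and 1.49 and 6.7 RPKM in *osd1*. The rest of the 12 were the glycosyltransferase genes *AT1G28700*, *AT5G25330* and *AT1G10880*, the lipase gene *GLIP6*, the cytochrome P450 gene *CYP76G1*, the extensin-like gene *AT5G59170*, the cupin gene *AT4G36700* and *AT4G33600*. None of the 12 kept more than 6.7 RPKM in an *osd1* library, and the highest wt value among them was 502.7 RPKM.

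In absolute terms, genes of the lipid transfer superfamily led both directions. *LTP6* was the gene with the largest rise in RPKM and had 4881 and 6969 RPKM in wt and 17471 and 21184 RPKM in *osd1*, a rise by 1.72 ± 0.33 on the log2 scale. *LP1* (lipid transfer protein 1) rose from 422 and 820 to 5415 and 5013 RPKM. The pectin methylesterase inhibitor-like genes *AT1G56100* and *AT4G15750* rose by 1.92 ± 0.22 and 1.83 ± 0.21 on the log2 scale. *DELTA-VPE*, which encodes a vacuolar processing enzyme known from the inner seed coat, had 2191 and 2622 RPKM in wt and 4520 and 4978 RPKM in *osd1*. The gibberellin-regulated-family gene *AT2G30810* rose 81.1-fold, from 22.2 and 23.9 to 2370 and 1365 RPKM, and the ECA1-family gene *AT5G51105* rose 17.1-fold. *AT2G01021* also rose, by 1.64 ± 0.41, but all of its 50-base stretches are repeated in the genome and it lies beside ribosomal RNA genes, so that its level is uncertain. Among the falls, the lipid-transfer/2S albumin-family neighbours *AT5G38170* and *AT5G38160* had 7706 and 7235 RPKM in wt and 152 and 668 RPKM in *osd1*, and 7191 and 7052 RPKM in wt and 133 and 706 RPKM in *osd1*. *LCR69* went from 4487 and 3794 to 169 and 457 RPKM, *ENODL3* from 2659 and 2548 to 36.6 and 157 RPKM and *RGP3*, a reversibly glycosylated polypeptide gene, from 951 and 865 to 6.95 and 21.2 RPKM. *AT1G12080*, *ENODL4* and the light-harvesting gene *CAB1* completed the list. The calls of *LTP6*, *AT2G01021*, *DELTA-VPE*, *AT5G38170*, *AT5G38160*, *CAB1* and *AT1G12080* were lost without either wt library, those of *AT2G01021* and *CAB1* also without *osd1* replicate 2, and those of *AT1G56100*, *AT4G15750*, *AT5G51105* and *ENODL3* without wt replicate 1.

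The genes that rose were shorter than the genes that fell. The median exon length was 1408 bp for the genes called higher, 1798 bp for those called lower and 1724 bp for all genes tested. Among the genes that rose by over 3 on the log2 scale it was 809 bp, and 35.3% of them had under 600 bp of exon, against 4.05% of all genes tested. These large rises had at most 2 exons in 62% of cases, and the falls of the same size in 51.7%, against 31.8% of all genes tested. Called genes stood next to each other in places. The longest run of neighbouring tested genes that were all called higher had 10 genes, at chr3:114260-126876 on TAIR10. It was singled out after its values were seen. Of these 10, 8 are annotated as ECA1 gametogenesis related genes, 1 is uncharacterised (*AT3G01325*) and 1 is *DEL3*, a DP-E2F-like cell cycle regulator gene. *AT3G01329* of this run had 3.21 and 5.18 RPKM in wt and 356 and 173 RPKM in *osd1*, and *AT3G01325* had 2.14 and 1.82 RPKM in wt and 334 and 203 RPKM in *osd1*. *DEL3* differed much less, with 10.1 and 9.97 RPKM in wt and 14.2 and 16.7 RPKM in *osd1*. The longest run of genes called lower had 8 genes, at chr1:28686181-28727111, which belong to different families and include the mitotic kinase gene *CDKB2;1* and *HMG1*, a gene of sterol precursor synthesis.

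Several regulators of the early, syncytial endosperm rose in *osd1* seeds, where 12.8% of all genes tested were called higher and 13.6% lower. Of 22 genes on this list, 21 passed the filter, 7 of them only through *osd1*, and 13 rose (7 without either wt library) while 2 fell (1 without wt replicate 1). The median log2 difference was 1.90. *AGL62*, the MADS-box gene whose product holds the endosperm in its syncytial phase, had 0.108 and 0.1 RPKM in wt and 20.8 and 10.4 RPKM in *osd1*, a rise by 4.66 ± 0.47 on the log2 scale (adjusted p = 0.0014). *CKX2*, a cytokinin oxidase gene, had 2.06 and 1.66 RPKM in wt and 191 and 65.4 RPKM in *osd1*, *HDG8* had 1.99 and 1.47 RPKM in wt and 71 and 41 RPKM in *osd1*, and the maternally expressed homeobox gene *FWA* had 1.55 and 1.23 RPKM in wt and 40.3 and 27.2 RPKM in *osd1*. All 4 stayed called in each leave-out fit. Of the 50 type I MADS-box genes, 26 passed the filter, 15 of them only through *osd1*, and 19 rose (9 without wt replicate 1, 10 without wt replicate 2) and none fell. *AGL96* rose from 0.421 and 1.09 to 119 and 45.6 RPKM and *AGL23* from 0 and 0.499 to 22.2 and 15.3 RPKM. The *phe1 phe2 osd1* libraries had 11.8 and 27.3 RPKM of *AGL62* and 82.6 and 50.5 RPKM of *CKX2*.

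Most of the tested genes of the cellularised and degrading endosperm fell, where 12.8% of all genes tested were called higher and 13.6% lower. Of the 13 that passed the filter, 8 fell (2 without wt replicate 1, 3 without wt replicate 2) and 2 rose (1 without either wt library), and the median log2 difference was -1.32. *ICE1*, whose product acts with ZHOUPI in endosperm breakdown, had 436 and 373 RPKM in wt and 60.6 and 84.5 RPKM in *osd1*, and its paralog *SCRM2* had 13.1 and 11.5 RPKM in wt and 2.45 and 1.38 RPKM in *osd1*. The sugar exporter genes *SWEET11* and *SAG29* (*SWEET15*), which feed the embryo, had 161 and 104 RPKM in wt and 3.73 and 9.72 RPKM in *osd1*, and 149 and 122 RPKM in wt and 21.7 and 56.7 RPKM in *osd1*. As in every called gene, the crosses did not overlap for any of these 4 genes. *LTP6*, described above, is on the same list and rose, and it made up most of the summed RPKM of the list. The call of *SWEET11* was lost without wt replicate 1 and that of *SAG29* without either wt library.

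Most genes for mitosis and cytokinesis fell, while few genes for DNA replication were called. Over all genes tested, 12.8% were called higher and 13.6% lower. Of the 43 genes for mitosis and cytokinesis, all of which passed the filter, 28 fell (16 without wt replicate 1) and none rose, with a median log2 difference of -1.42. In 37 of the mitosis genes both *osd1* libraries were below both wt libraries, where 33.8% of all genes tested were. *SYP111* (*KNOLLE*), the syntaxin that fuses vesicles into the cell plate, had 372 and 387 RPKM in wt and 14 and 41.8 RPKM in *osd1*, and fell by 3.94 ± 0.45 on the log2 scale (adjusted p = 0.0022). The cell plate kinesin gene *HIK* had 35.8 and 37.1 RPKM in wt and 3.76 and 5.21 RPKM in *osd1*, the phragmoplast microtubule gene *PLE* had 26.8 and 27.7 RPKM in wt and 4.17 and 4.04 RPKM in *osd1*, and *CYCB2;1* had 5.82 and 4.35 RPKM in wt and 0.106 and 0.397 RPKM in *osd1*. As in every called gene, the crosses did not overlap for any of these genes, and for *HIK* and *PLE* the replicates were close. Of 29 genes for replication licensing and the replication fork 1 rose (0 without wt replicate 1, 0 without either *osd1* library, 0 without either *phe1 phe2 osd1* library) and 2 fell (0 without either wt library, 1 without *osd1* replicate 2), and the median log2 difference was -0.01. *TSO2*, a ribonucleotide reductase subunit gene, had 91.7 and 97 RPKM in wt and 65.1 and 57.1 RPKM in *osd1*, *CDT1B* had 7.7 and 6.5 RPKM in wt and 4.04 and 3.51 RPKM in *osd1* and *CDC6* had 5.5 and 3.16 RPKM in wt and 9.52 and 8.47 RPKM in *osd1*. The 3 calls were lost without wt replicate 1, that of *CDC6* without any one of the 6 libraries, and those of *TSO2* and *CDT1B* without wt replicate 2, and *CDT1B* also without *osd1* replicate 2. Of 42 histone genes, 4 rose (1 without wt replicate 1, 2 without wt replicate 2, 2 without either *osd1* library) and 2 fell (1 without either wt library, 1 without *osd1* replicate 1, 4 without *osd1* replicate 2, 1 without either *phe1 phe2 osd1* library). *AT1G75600*, a histone gene, had 4.04 and 4.58 RPKM in wt and 139 and 191 RPKM in *osd1*. In the cytosolic ribosome list, 14 of 172 genes rose (4 without either wt library, 9 without *osd1* replicate 1, 7 without *osd1* replicate 2) and 2 fell (0 without either wt library). The median difference was small, 0.15, yet in 109 genes both *osd1* libraries were above both wt libraries, which held for 34.2% of all genes tested. The acidic ribosomal protein genes *AT5G24510* and *AT5G40040* rose from 5.73 and 7.38 to 72.9 and 87.4 RPKM and from 3.49 and 5.14 to 36.8 and 33.2 RPKM.

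**Figure D2:**
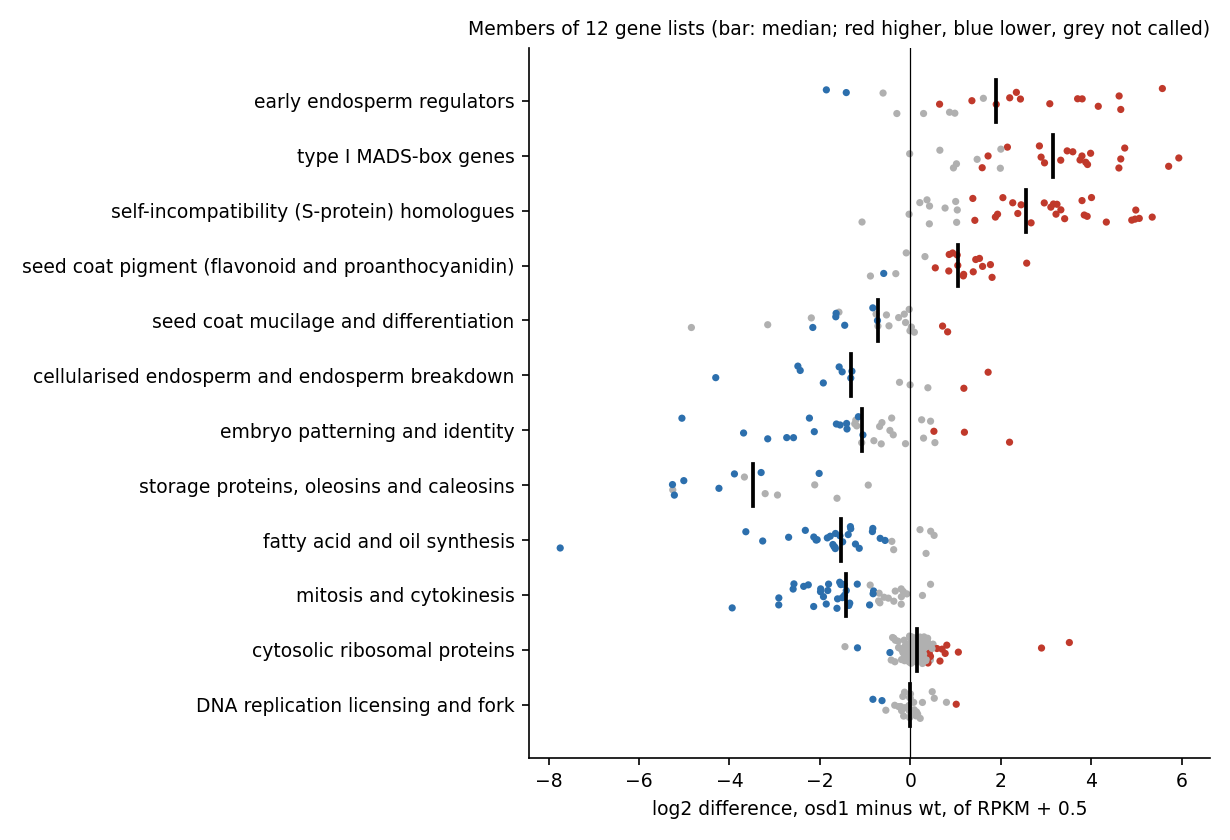
Log2 difference between *osd1* and wt (x axis, of RPKM + 0.5) for each member that passed the filter on 12 gene lists. Each point is a gene, red where called higher, blue where called lower and grey where not called, and the bars mark the medians, from 3.15 for type I MADS-box genes to -3.48 for storage proteins, oleosins and caleosins.

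Many genes of the embryo and its reserves had lower levels in *osd1* seeds, where 12.8% of all genes tested were called higher and 13.6% lower. Of 32 embryo patterning and identity genes that passed the filter, 13 fell (7 without wt replicate 1), 3 rose (1 without wt replicate 1, 1 without *osd1* replicate 1) and the median log2 difference was -1.06. *NF-YB6*, known as *LEC1-LIKE*, had 85.9 and 87.8 RPKM in wt and 1.49 and 2.99 RPKM in *osd1*, and *FUS3* had 38.4 and 35.2 RPKM in wt and 1.81 and 3.12 RPKM in *osd1*. *ABI3*, which with *FUS3* drives seed maturation, had 39.6 and 35 RPKM in wt and 6.39 and 4.17 RPKM in *osd1*, and the polarity gene *PHB* had 55 and 51.8 RPKM in wt and 5.44 and 5.68 RPKM in *osd1*. All 4 fell in every leave-out fit, a direction that was fixed because both *osd1* libraries lay below both wt libraries. None of the 14 genes for storage proteins, oleosins and caleosins rose. In 13 of them both *osd1* libraries were below both wt libraries, against 33.8% of all genes tested, but 7 were called (4 without wt replicate 2), and 6 of the 14 passed the filter only through wt, which fixed their direction. *SESA3*, a 2S albumin gene, had 5.19 and 116 RPKM in wt and 0 and 0.454 RPKM in *osd1*, and its call was lost without wt replicate 2, without either *osd1* library and without either *phe1 phe2 osd1* library. The cruciferin gene *CRA1* had 29.2 and 54.5 RPKM in wt and 0.349 and 0.812 RPKM in *osd1*, the albumin gene *SESA1* had 46.9 and 60.7 RPKM in wt and 0.323 and 2.9 RPKM in *osd1*, and the oil body gene *OLEO3* had 474 and 404 RPKM in wt and 15.1 and 34.3 RPKM in *osd1*. The call of *SESA1* was lost without wt replicate 1.

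Most genes of oil synthesis fell, where 12.8% of all genes tested were called higher and 13.6% lower. Of 32 genes for fatty acid and oil synthesis, 26 fell, none rose (2 without *osd1* replicate 2), and the median log2 difference was -1.52. *WRI1*, which encodes the transcription factor that switches on glycolysis and fatty acid synthesis in seeds, had 200.3 and 180.1 RPKM in wt and 20.6 and 40.6 RPKM in *osd1*, and fell by 2.69 ± 0.29 on the log2 scale (adjusted p = 0.0018). *BCCP2*, a subunit of the acetyl-CoA carboxylase that starts fatty acid synthesis, had 228 and 209 RPKM in wt and 17.2 and 28.9 RPKM in *osd1*, and the acyl carrier protein gene *ACP5* had 369.6 and 349 RPKM in wt and 17.7 and 45.3 RPKM in *osd1*. The call of *ACP5* was lost without wt replicate 1. Nuclear photosynthesis genes had a smaller median difference. Of 72 that passed the filter, 30 were called lower (1 without wt replicate 1, 4 without wt replicate 2) and 3 higher (0 without either wt library, 1 without *osd1* replicate 1), with a median log2 difference of -0.51. *CAB2*, a light-harvesting gene, had 816 and 975 RPKM in wt and 376 and 169 RPKM in *osd1*, with 20.5% of its 50-base stretches repeated elsewhere, and its call was lost without either wt library. The members called higher were Rubisco small subunit genes, such as *RBCS3B*, which had 27.6 and 39.3 RPKM in wt and 200.2 and 89.1 RPKM in *osd1*. Of the 50-base stretches of *RBCS3B*, *RBCS2B* and *RBCS1B*, 16.5%, 16.9% and 12% are repeated elsewhere. The 3 calls of Rubisco genes were lost without either wt library, and those of *RBCS1B* and *RBCS2B* without *osd1* replicate 1. The call of *RBCS2B* was also lost without either *phe1 phe2 osd1* library.

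Genes known from the maternal seed coat, whose genotype was the same in both crosses, differed too. Beside the counts below, 12.8% of all genes tested were called higher and 13.6% lower. Of 20 genes for flavonoid and proanthocyanidin pigments, 15 rose (4 without wt replicate 1) and 1 fell (0 without either wt library, 2 without *osd1* replicate 2), and the median log2 difference was 1.04. *TT12*, which encodes a transporter that loads proanthocyanidin precursors into the vacuole, had 5.75 and 5.99 RPKM in wt and 54.7 and 25.6 RPKM in *osd1*. The regulator gene *TT1* had 4.8 and 7.43 RPKM in wt and 29.7 and 16.6 RPKM in *osd1*, and *F3H*, an early enzyme of the flavonoid pathway, had 73.8 and 93.2 RPKM in wt and 271 and 235 RPKM in *osd1*. *STK*, the ovule identity MADS-box gene that also acts in seed coat pigmentation, had 68.5 and 87.9 RPKM in wt and 267 and 266 RPKM in *osd1*, a rise by 1.77 ± 0.16 on the log2 scale (adjusted p = 0.00098). The call of *TT12* was lost without wt replicate 1 and that of *TT1* without either wt library. Mucilage and seed coat differentiation genes leaned the other way, with 6 of 23 called lower (0 without wt replicate 1, 1 without wt replicate 2, 12 without *osd1* replicate 2) and 2 higher (0 without either wt library). Here the *osd1* libraries disagreed. The summed RPKM of the list was 3220 and 3433 in wt but 1203 in *osd1* replicate 1 and 2853 in *osd1* replicate 2. *MUM2*, which encodes the galactosidase that lets mucilage swell, had 97.7 and 73.6 RPKM in wt and 20.3 and 35 RPKM in *osd1*, *GATL5* had 97 and 43.2 RPKM in wt and 12.4 and 16.1 RPKM in *osd1*, *CESA5*, a cellulose synthase gene of mucilage, had 80.5 and 73 RPKM in wt and 15.2 and 38.6 RPKM in *osd1*, and *FRA8* had 40.6 and 35.3 RPKM in wt and 9.28 and 19.6 RPKM in *osd1*. The calls of *MUM2*, *CESA5* and *FRA8* were lost without either wt library, that of *GATL5* without wt replicate 1 and that of *CESA5* without either *phe1 phe2 osd1* library. Of 10 flower organ and carpel identity genes, 3 rose (0 without wt replicate 1) and 2 fell (1 without wt replicate 1). *SHP1* and *AP3* had 14.6 and 20.6 RPKM in wt and 57.4 and 42.1 RPKM in *osd1*, and 67.1 and 85.3 RPKM in wt and 156 and 177 RPKM in *osd1*, while *SPT* had 22.5 and 21.7 RPKM in wt and 3.84 and 3.73 RPKM in *osd1* and *AFO* (*FIL*) had 25.9 and 20.8 RPKM in wt and 9.17 and 8.54 RPKM in *osd1*. The calls of *SHP1*, *AP3* and *AFO* were lost without wt replicate 1. Pollen genes gave 1 call higher (0 without wt replicate 1) and 3 lower (1 without either wt library) of 9 that passed the filter.

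**Figure D3:**
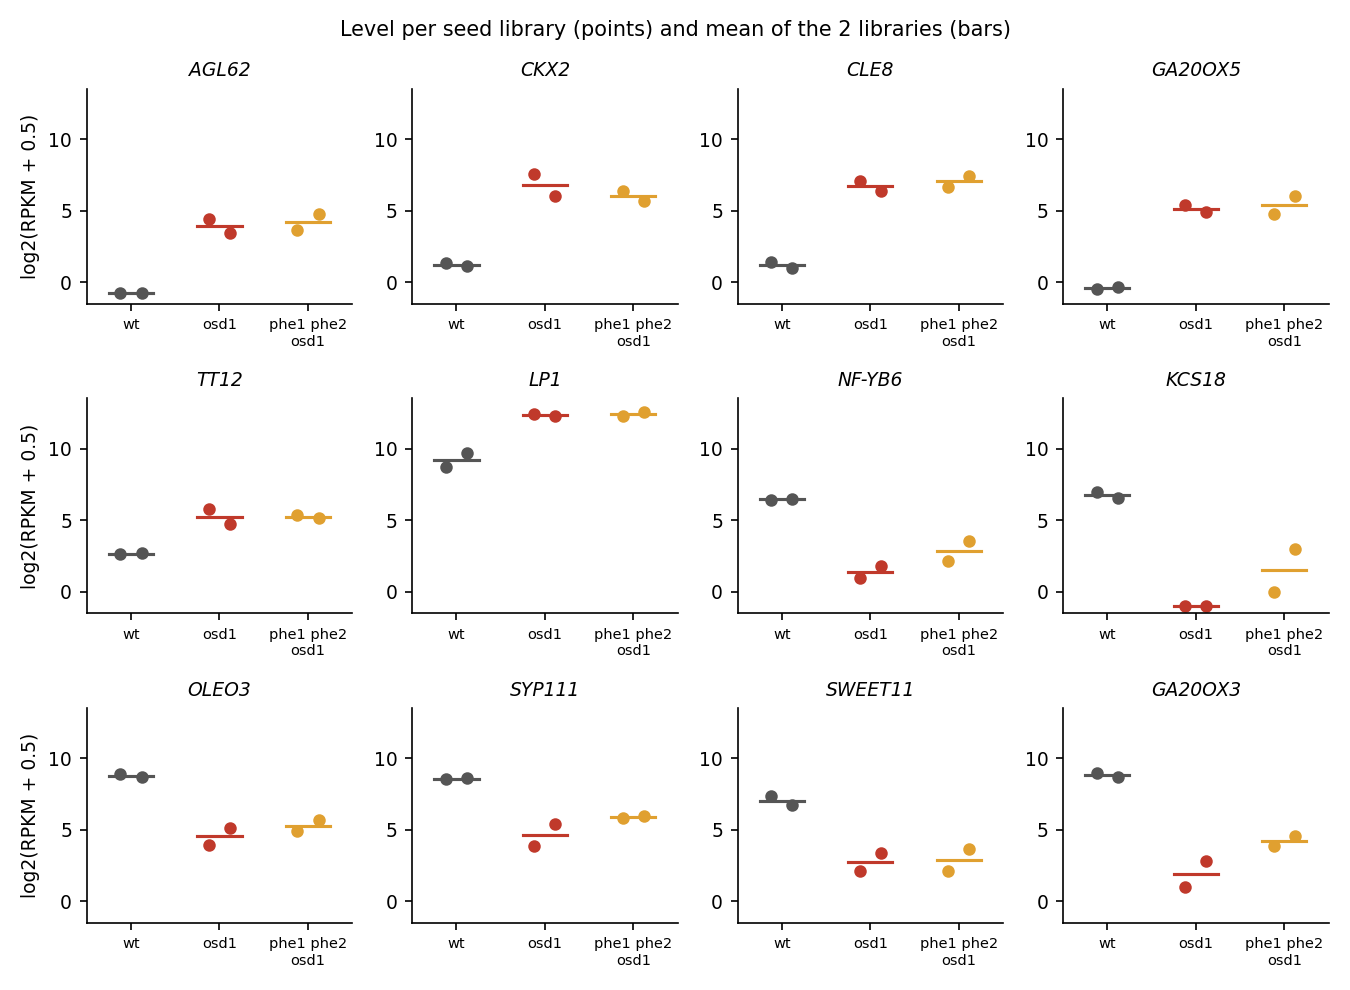
Level of 12 named genes as log2(RPKM + 0.5) (y axis) in each of the 2 libraries of wt, *osd1* and *phe1 phe2 osd1* seeds (points), with the mean of the 2 libraries as a bar. In the top row and for *TT12* and *LP1* both *osd1* libraries lie above both wt libraries, and for the other 6 genes both lie below.

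Many genes for small secreted cysteine-rich proteins rose, where 12.8% of all genes tested were called higher and 13.6% lower. Members that passed the filter only through *osd1* and only through wt were 4 and 8 ECA1 genes. In the lipid transfer list they were 12 and 9, and in the signalling peptide list 7 and 6. Such peptides are known mainly from pollen-pistil signalling and defence, and many are restricted to gametophytes and seeds. Of 193 defensin-like and LCR genes, 113 passed the filter, 37 of them only through *osd1* and 8 only through wt. Of these, 66 rose and 9 fell (5 without wt replicate 1). *LCR35* had 0 and 0.478 RPKM in wt and 126 and 61.6 RPKM in *osd1*, *LCR36* had 0 and 0.49 RPKM in wt and 122 and 51.6 RPKM in *osd1*, and the defensin-like gene *AT2G21465* had 12.6 and 10.9 RPKM in wt and 1489.8 and 925 RPKM in *osd1*. In each the lower *osd1* value was still far above wt. Of 27 SCR-like genes, 12 passed the filter and 8 rose and none fell (1 without either *phe1 phe2 osd1* library). *SCRL4* had 5.26 and 6.09 RPKM in wt and 96.6 and 77.8 RPKM in *osd1*. The call of *SCRL5* was lost without wt replicate 1. Of 81 ECA1 gametogenesis related genes, 24 passed the filter, 12 rose and 2 fell (1 without wt replicate 1, 0 without wt replicate 2, 1 without either *phe1 phe2 osd1* library). *AT5G15000* had 1.03 and 1.33 RPKM in wt and 285 and 95 RPKM in *osd1*, and *AT3G27425* had 0.964 and 1.07 RPKM in wt and 141 and 55.4 RPKM in *osd1*. The summed RPKM of the ECA1 list was 189 and 181 in wt and 4350 and 1998 in *osd1*. Both *osd1* libraries stood far above wt and also far from each other. S-protein homologues, relatives of the stigma proteins of poppy self-incompatibility, rose in 26 of 36 genes that passed the filter (9 without either wt library), 21 of which passed only through *osd1*, and none fell (1 without *osd1* replicate 2). *AT2G06090* had 0.15 and 0.416 RPKM in wt and 36.8 and 15.3 RPKM in *osd1*. *AT5G12060* and *AT3G24065* were listed at 0 in both wt libraries and had 32.1 and 8.09 RPKM, and 26.9 and 8.7 RPKM, in *osd1*. The calls of these 2 genes and of *AT3G55677* were lost without either wt library. Lipid transfer proteins, small secreted lipid carriers, rose in 22 (10 without wt replicate 1) and fell in 8 (2 without wt replicate 1, 3 without wt replicate 2) of 68. *AT1G73560* rose from 5.07 and 4.58 to 138 and 113 RPKM and *AT2G14846* from 1.61 and 3.72 to 239.5 and 171 RPKM, while *AT5G55410* fell from 406 and 319 to 3.81 and 15.7 RPKM, a call that was lost without either wt library. Among 36 genes for signalling peptides, 9 rose (2 without wt replicate 1, 4 without wt replicate 2) and 6 fell (3 without wt replicate 1, 3 without *osd1* replicate 1). *CLE8*, a peptide gene of the early embryo and endosperm, had 2.23 and 1.47 RPKM in wt and 137 and 83 RPKM in *osd1*, a rise by 5.53 ± 0.34 on the log2 scale (adjusted p = 0.00038), whereas *CLE12* had 5.99 and 3.48 RPKM in wt and 0.356 and 0.437 RPKM in *osd1* and the pollen tube peptide gene *RALFL4* had 4.49 and 3.19 RPKM in wt and 0.273 and 0.14 RPKM in *osd1*.

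Cell wall families each had members called in both directions, where 12.8% of all genes tested were called higher and 13.6% lower. Some members passed the filter only through *osd1* or only through wt, which fixed their direction. These were 14 and 4 genes of the pectin methylesterase list, 8 and 1 of the expansin list and 11 and 7 of the polygalacturonase list. For arabinogalactan and extensin proteins they were 5 and 4, and for glucosidases and chitinases 3 and 4. Pectin methylesterases and their inhibitors rose in 27 (10 without wt replicate 1, 16 without wt replicate 2) and fell in 12 (2 without wt replicate 1, 3 without wt replicate 2) of 75 that passed the filter. The neighbouring inhibitor-like genes *AT5G46960* and *AT5G46950* had 14.5 and 19.1 RPKM in wt and 2112 and 1264 RPKM in *osd1*, and 11.2 and 15.4 RPKM in wt and 1597 and 888 RPKM in *osd1*. *ATPMEPCRD*, a pectin methylesterase gene, had 887 and 555 RPKM in wt and 2.46 and 62 RPKM in *osd1*. The *osd1* libraries were far apart for this gene, and its call was lost without either wt library. Expansins and xyloglucan endotransglucosylases rose in 14 (5 without either wt library) and fell in 6 (2 without either wt library, 2 without *osd1* replicate 2) of 43. Beside *EXPA21* and *EXPA23*, *EXPA25* had 3.6 and 8.82 RPKM in wt and 1282 and 415 RPKM in *osd1*, with 53.7% of its 50-base stretches repeated elsewhere, and *EXPB4* had 0.0641 and 0.118 RPKM in wt and 54.1 and 12.8 RPKM in *osd1*. None of the expansin and xyloglucan endotransglucosylase genes that passed the filter was bound by PHE1. The call of *EXPB4* was lost without wt replicate 1. Polygalacturonases and pectate lyases had 11 genes called higher (4 without either wt library, 6 without *osd1* replicate 1, 7 without either *phe1 phe2 osd1* library) and 11 lower of 58. *AT4G32380* had 0.276 and 0.509 RPKM in wt and 207 and 43.4 RPKM in *osd1*, while *AT3G07830* and *AT3G59850* had 16.5 and 10.7 RPKM, and 11.5 and 9.29 RPKM, in wt and were listed at 0 in both *osd1* libraries. Arabinogalactan and extensin proteins moved in both directions as well, with 17 higher (6 without wt replicate 1, 10 without wt replicate 2) and 14 lower (8 without either wt library) of 70. *EPR1*, an extensin-like gene known from the endosperm of germinating seeds, had 467 and 341 RPKM in wt and 23.6 and 2.54 RPKM in *osd1* and *EXT4* had 0.721 and 1.02 RPKM in wt and 16.4 and 25.4 RPKM in *osd1*. The call of *EPR1* was lost without either wt library and that of *EXT4* without wt replicate 1. Glucan endo-1,3-beta-glucosidases and chitinases, which act on callose and chitin, fell in 8 (5 without either wt library) and rose in 3 (1 without either wt library, 1 without *osd1* replicate 1, 5 without *osd1* replicate 2) of 39. *BG1* rose from 0.874 and 0.807 to 152 and 50.8 RPKM, and *E13L3* fell from 19.1 and 15.1 to 0.861 and 0.441 RPKM.

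Protein breakdown families held genes that rose and genes that fell, where 12.8% of all genes tested were called higher and 13.6% lower. Only through *osd1* and only through wt, 9 and 1 subtilase genes and 7 and 2 aspartyl protease genes passed the filter. Of 35 subtilase genes, 11 rose (2 without wt replicate 1, 3 without wt replicate 2) and 6 fell (1 without wt replicate 1, 2 without wt replicate 2). *AT5G58830* had 0.919 and 0.823 RPKM in wt and 57.9 and 24.5 RPKM in *osd1*, against the fall of *SBTI1.1*. Aspartyl proteases rose in 14 (4 without wt replicate 1, 5 without wt replicate 2) and fell in 5 (2 without either wt library) of 51. *AT1G44130* had 0 and 0.139 RPKM in wt and 121 and 35.9 RPKM in *osd1*, while *AT4G04460*, with 452 and 394 RPKM in wt and 14.7 and 14.8 RPKM in *osd1*, fell by 4.79 ± 0.12 on the log2 scale with close replicates (adjusted p = 9.4e-05). The vacuolar processing enzyme gene *ALPHA-VPE* had 47.6 and 37.6 RPKM in wt and 1.18 and 1.6 RPKM in *osd1*, and *CEP1*, a cysteine protease gene of programmed cell death, had 209.7 and 168 RPKM in wt and 43.6 and 71.7 RPKM in *osd1*. Their list, cysteine proteases and programmed cell death, did not fall as a whole, with a median log2 difference of 0.08 over 40 genes. In 16 of these both *osd1* libraries were above both wt libraries, and in 13 below. The call of *CEP1* was lost without wt replicate 1. F-box proteins, which select targets for the proteasome, were called higher in 114 of 332 genes (42 without wt replicate 1, 51 without wt replicate 2) and lower in 22 (5 without wt replicate 1, 6 without wt replicate 2, 11 without *osd1* replicate 1), and 77 of those tested passed the filter only through *osd1*. *AT1G61330* had 4.33 and 4.21 RPKM in wt and 70.1 and 76.6 RPKM in *osd1*, *AT5G03920* had 0.0983 and 1.18 RPKM in wt and 54.5 and 44.1 RPKM in *osd1*, and *AT1G12190* had 0.652 and 0.602 RPKM in wt and 20 and 15.1 RPKM in *osd1*. Of the 114 F-box genes called higher, 95 were not bound by PHE1, where 78.4% of all genes called higher were not. Of 31 bound F-box genes tested, 19 rose. In the next family, the MATH/BTB genes, 5.33% were called higher and 14.7% lower, the latter near the share over all genes. MATH/BTB genes, another family of ubiquitin ligase adaptors, had 4 genes called higher (0 without wt replicate 1, 2 without wt replicate 2) and 11 lower (1 without wt replicate 1, 2 without wt replicate 2, 6 without *osd1* replicate 1, 7 without either *phe1 phe2 osd1* library) of 75.

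Transcription factor families other than the type I MADS-box genes held both risers and fallers, where 12.8% of all genes tested were called higher and 13.6% lower. Members that passed the filter only through *osd1* and only through wt were 13 and 1 C2H2 genes and 3 and 7 homeobox genes. In the B3 list they were 11 and 3, and in the MYB list 12 and 9. C2H2 zinc finger genes leaned upward, with 22 higher (10 without wt replicate 1, 13 without wt replicate 2) and 4 lower (0 without wt replicate 1, 1 without wt replicate 2, 9 without *osd1* replicate 2) of 68. *AT1G04445* had 0.709 and 0.982 RPKM in wt and 124 and 48.1 RPKM in *osd1*, and *AT5G42640* was listed at 0 in both wt libraries and had 20.6 and 8.18 RPKM in *osd1*. Homeobox genes leaned downward, with 19 lower (11 without either wt library) and 6 higher (2 without wt replicate 1, 3 without wt replicate 2) of 68. *HB-3* (*WOX9*), which acts in the early embryo, had 19.1 and 17.1 RPKM in wt and 2.68 and 2.51 RPKM in *osd1*. Of 74 B3-domain genes, 21 fell (10 without wt replicate 1, 12 without wt replicate 2) and 16 rose (5 without wt replicate 1, 6 without wt replicate 2, 7 without *osd1* replicate 1). The auxin response factor gene *ARF11* had 34.8 and 28.1 RPKM in wt and 0.92 and 1.72 RPKM in *osd1*, whereas *ARF12* had 0.103 and 0.0635 RPKM in wt and 10.1 and 4.28 RPKM in *osd1*. *ARF12* and *ARF15* share 23.3% and 34.8% of their 50-base stretches with other places in the genome, and their calls were lost without *osd1* replicate 1 and without either wt library. Of 170 MYB and MYB-like genes, 36 rose (12 without wt replicate 1, 17 without wt replicate 2) and 23 fell (5 without wt replicate 1, 8 without wt replicate 2). *MYB56* had 139 and 129 RPKM in wt and 1.01 and 5.55 RPKM in *osd1* and *AT3G10595* had 0.98 and 0.823 RPKM in wt and 101 and 54.5 RPKM in *osd1*. Single genes of other families were nearly lost from *osd1* seeds, while the median over the members of these families did not fall. The median log2 difference was 0.28 for 21 LOB domain genes and 0.004 for 64 AP2/ERF (ethylene response factor) genes. The summed RPKM of both lists was lower in *osd1*, however. It was 604 and 531 in wt and 291 and 313 in *osd1* for the LOB domain list. For the AP2/ERF list it was 873 and 826 in wt and 459 and 534 in *osd1*. *LBD42* of the LOB domain family had 209 and 173 RPKM in wt and 2.99 and 14.2 RPKM in *osd1*, and *EBP*, an ethylene response factor gene, had 253 and 237 RPKM in wt and 17.8 and 42.1 RPKM in *osd1*, and the calls of both were lost without wt replicate 1. *WRKY10*, known as *MINI3* and a promoter of endosperm growth, had 0 and 0.0387 RPKM in wt and 9.41 and 4.1 RPKM in *osd1*, with a call lost without either wt library. In the type II MADS-box genes, *FLC*, the flowering repressor, had 8.12 and 6.8 RPKM in wt and 0.694 and 0.655 RPKM in *osd1*. Its list did not fall as a whole, with a median log2 difference of 0.19 over 25 genes. In 11 of these both *osd1* libraries were above both wt libraries, and in 6 below.

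Hormone lists held genes that rose and genes that fell, where 12.8% of all genes tested were called higher and 13.6% lower. Passing the filter only through *osd1* and only through wt were 2 and 2 gibberellin, 7 and 6 cytokinin and 23 and 7 auxin genes. For the small auxin-up RNAs these were 10 and 4. In the gibberellin list, 7 of 24 rose (2 without either wt library) and 5 fell (3 without wt replicate 1). As *GA20OX3* fell, its paralog *GA20OX5*, which encodes a variant 20-oxidase, had 0.212 and 0.293 RPKM in wt and 40.9 and 29.8 RPKM in *osd1*, and the DELLA repressor gene *RGL3* had 18.7 and 20.2 RPKM in wt and 1.69 and 1.79 RPKM in *osd1*. The inactivating oxidase gene *ATGA2OX3* was listed at 0 in both wt libraries and had 4.15 and 2.87 RPKM in *osd1*. In the cytokinin list, 9 of 45 rose (5 without wt replicate 1) and 8 fell (4 without wt replicate 1, 5 without wt replicate 2). While *CKX2* rose, its paralog *CKX3* had 12.2 and 11.1 RPKM in wt and 0.107 and 0.146 RPKM in *osd1*. *IPT6*, a cytokinin synthesis gene, had 7.98 and 10.2 RPKM in wt and was listed at 0 in both *osd1* libraries. The response regulator gene *RR19* had 3.66 and 3.51 RPKM in wt and 38 and 40.1 RPKM in *osd1*. Auxin genes rose in 29 (3 without wt replicate 1, 4 without wt replicate 2, 16 without *osd1* replicate 1) and fell in 19 (5 without wt replicate 1, 9 without wt replicate 2) of 107. *TAR1*, an auxin synthesis gene, had 0 and 0.34 RPKM in wt and 11.5 and 6.28 RPKM in *osd1*, a call that was lost without *osd1* replicate 1 and without either wt library. Small auxin-up RNAs gave 10 calls lower (1 without wt replicate 1, 4 without wt replicate 2) and 5 higher (0 without either wt library, 3 without either *phe1 phe2 osd1* library) of 37. In the brassinosteroid list the synthesis genes *CYP90D1* and *DWF4* had 1.95 and 2.34 RPKM in wt and 18.8 and 17.8 RPKM in *osd1*, and 5.11 and 4.94 RPKM in wt and 30.4 and 12 RPKM in *osd1*, and the response factor genes *BES1* and *BZR1* had 85.4 and 76.1 RPKM in wt and 14.1 and 19.2 RPKM in *osd1*, and 73.8 and 74.5 RPKM in wt and 19.6 and 30.9 RPKM in *osd1*. Of 21 genes, 5 rose (1 without either wt library, 3 without either *phe1 phe2 osd1* library) and 7 fell (2 without either wt library), and the calls of *DWF4* and *BZR1* were lost without either wt library.

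The core hypoxia genes fell in 8 (1 without wt replicate 1, 5 without wt replicate 2, 5 without *osd1* replicate 1) and rose in 2 (0 without either wt library, 1 without *osd1* replicate 1) of 15 genes, with a median log2 difference of -1.20. *AT5G39890*, an oxygen-sensing plant cysteine oxidase gene, had 44.2 and 40.4 RPKM in wt and 9 and 11.5 RPKM in *osd1*. The fermentation genes *ADH1* and *AT4G33070* (a pyruvate decarboxylase gene) had 62.1 and 29.5 RPKM in wt and 8.98 and 12.4 RPKM in *osd1*, and 60.9 and 25.1 RPKM in wt and 5.48 and 8.82 RPKM in *osd1*. Both wt replicates were above *osd1* in each, but the wt replicates were also far apart, with the higher value in replicate 1. The calls of both were lost without wt replicate 1, and that of *ADH1* also without *osd1* replicate 1. Sugar transporters fell in 13 (3 without wt replicate 1, 4 without wt replicate 2) and rose in 7 (1 without wt replicate 1, 2 without wt replicate 2) of 33, and *SWEET8* rose from 5.15 and 6.18 to 66.2 and 38.8 RPKM. The aquaporin gene *PIP1C* had 209 and 211 RPKM in wt and 33.8 and 20.3 RPKM in *osd1*, and fell by 2.98 ± 0.23 on the log2 scale (adjusted p = 0.00063). The counts of these lists stand beside 12.8% of all genes tested called higher and 13.6% lower. Amino acid transporters, for example, were called higher in 16.1% and lower in 19.6%. Of 25 aquaporin genes, 4 fell (1 without either wt library) and 2 rose (0 without wt replicate 1, 1 without wt replicate 2, 1 without *osd1* replicate 1, 4 without *osd1* replicate 2). Amino acid transporters had 9 genes called higher (1 without wt replicate 1, 3 without wt replicate 2) and 11 lower (4 without wt replicate 1) of 56. Cytochrome P450s were called nearly evenly, 28 higher (7 without wt replicate 1, 13 without wt replicate 2) and 31 lower (14 without wt replicate 1, 17 without wt replicate 2) of 122. Leucine-rich repeat receptor kinases fell in 24 (9 without wt replicate 1, 11 without wt replicate 2) and rose in 10 (1 without either wt library, 4 without *osd1* replicate 1) of 119. The pentatricopeptide repeat genes, which serve RNA processing in organelles, were seldom called. Of 282 tested, 4 were higher (0 without either wt library, 1 without *osd1* replicate 1) and 11 lower (2 without either wt library, 5 without *osd1* replicate 2), shares below those over all genes.

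Lists for stress, defence and metabolism are read against the 12.8% of all genes tested that were called higher and the 13.6% called lower. Heat shock proteins and chaperones rose in 9 (1 without wt replicate 1, 2 without wt replicate 2) and fell in 7 (2 without wt replicate 1, 3 without wt replicate 2) of 71 genes, which is 12.7% and 9.86% and so at or below the shares over all genes. Class III peroxidases rose in 8 (4 without wt replicate 1, 5 without wt replicate 2) and fell in 4 (1 without wt replicate 1, 0 without wt replicate 2, 0 without *osd1* replicate 1) of 29. UDP-glycosyltransferases, which attach sugars to small molecules, fell in 18 (5 without wt replicate 1, 8 without wt replicate 2) and rose in 8 (1 without wt replicate 1, 3 without wt replicate 2, 5 without *osd1* replicate 1, 5 without *phe1 phe2 osd1* replicate 2) of 84. GDSL lipases and esterases fell in 14 (6 without wt replicate 1, 9 without wt replicate 2) and rose in 10 (3 without wt replicate 1, 4 without wt replicate 2) of 52, with *GLIP6* among the falls. Abscisic acid genes rose in 5 (2 without either wt library) and fell in 2 (1 without either wt library, 1 without *osd1* replicate 1, 4 without *osd1* replicate 2, 1 without either *phe1 phe2 osd1* library) of 24, and jasmonate and wound genes in 3 (0 without wt replicate 1, 1 without wt replicate 2, 1 without *osd1* replicate 2) and 2 (0 without either wt library, 4 without *osd1* replicate 2, 1 without either *phe1 phe2 osd1* library) of 19. Transposable element genes, of which 16 passed the filter, gave no call higher and 2 lower (0 without either wt library, 0 without *osd1* replicate 1, 1 without *osd1* replicate 2, 0 without either *phe1 phe2 osd1* library).

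Genes on the Polycomb repressive complex list differed in direction. *MEA*, the maternally expressed endosperm subunit, had 1.31 and 1.9 RPKM in wt and 6.03 and 3.91 RPKM in *osd1*, while *FIE*, the shared WD40 subunit, had 47 and 45.4 RPKM in wt and 24.7 and 23.5 RPKM in *osd1* and *VEL1* had 73.7 and 73.1 RPKM in wt and 29.6 and 31.8 RPKM in *osd1*. Of the 11 genes 1 rose (0 without either wt library, 0 without *osd1* replicate 1) and 5 fell (2 without either wt library, 3 without *osd1* replicate 1), and the call of *MEA* was lost without *osd1* replicate 1 and without either wt library. In the DNA methylation list, 9 fell (2 without wt replicate 1, 5 without wt replicate 2) and 5 rose (1 without either wt library, 2 without *osd1* replicate 1) of 34. *CHR38* (*CLSY1*), which recruits RNA polymerase IV, had 33.1 and 22.7 RPKM in wt and 3.3 and 3.99 RPKM in *osd1*, and *SUVH7*, a paternally expressed histone methyltransferase gene, had 0 and 0.272 RPKM in wt and 6.28 and 3.6 RPKM in *osd1*. Imprinted genes, as listed by the study from earlier publications, were called in both directions, where 12.8% of all genes tested were called higher and 13.6% lower. Of the paternally expressed genes, 21 passed the filter only through *osd1* and 3 only through wt, which fixed their direction. For the maternally expressed genes these were 3 and 6. Of 145 paternally expressed genes that passed the filter, 64 rose (37 without wt replicate 1, 42 without wt replicate 2) and 21 fell (5 without wt replicate 1, 6 without wt replicate 2). Of 115 maternally expressed genes, 25 rose (6 without wt replicate 1, 10 without wt replicate 2) and 16 fell (6 without wt replicate 1, 7 without wt replicate 2), and the difference between the lists was not tested. *AT4G20800*, a berberine bridge enzyme-like gene, had 2.59 and 2.63 RPKM in wt and 385 and 195 RPKM in *osd1*, and the kinase gene *AT3G50720* had 0.0541 and 0.0499 RPKM in wt and 20.2 and 11 RPKM in *osd1*.

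**Figure D4:**
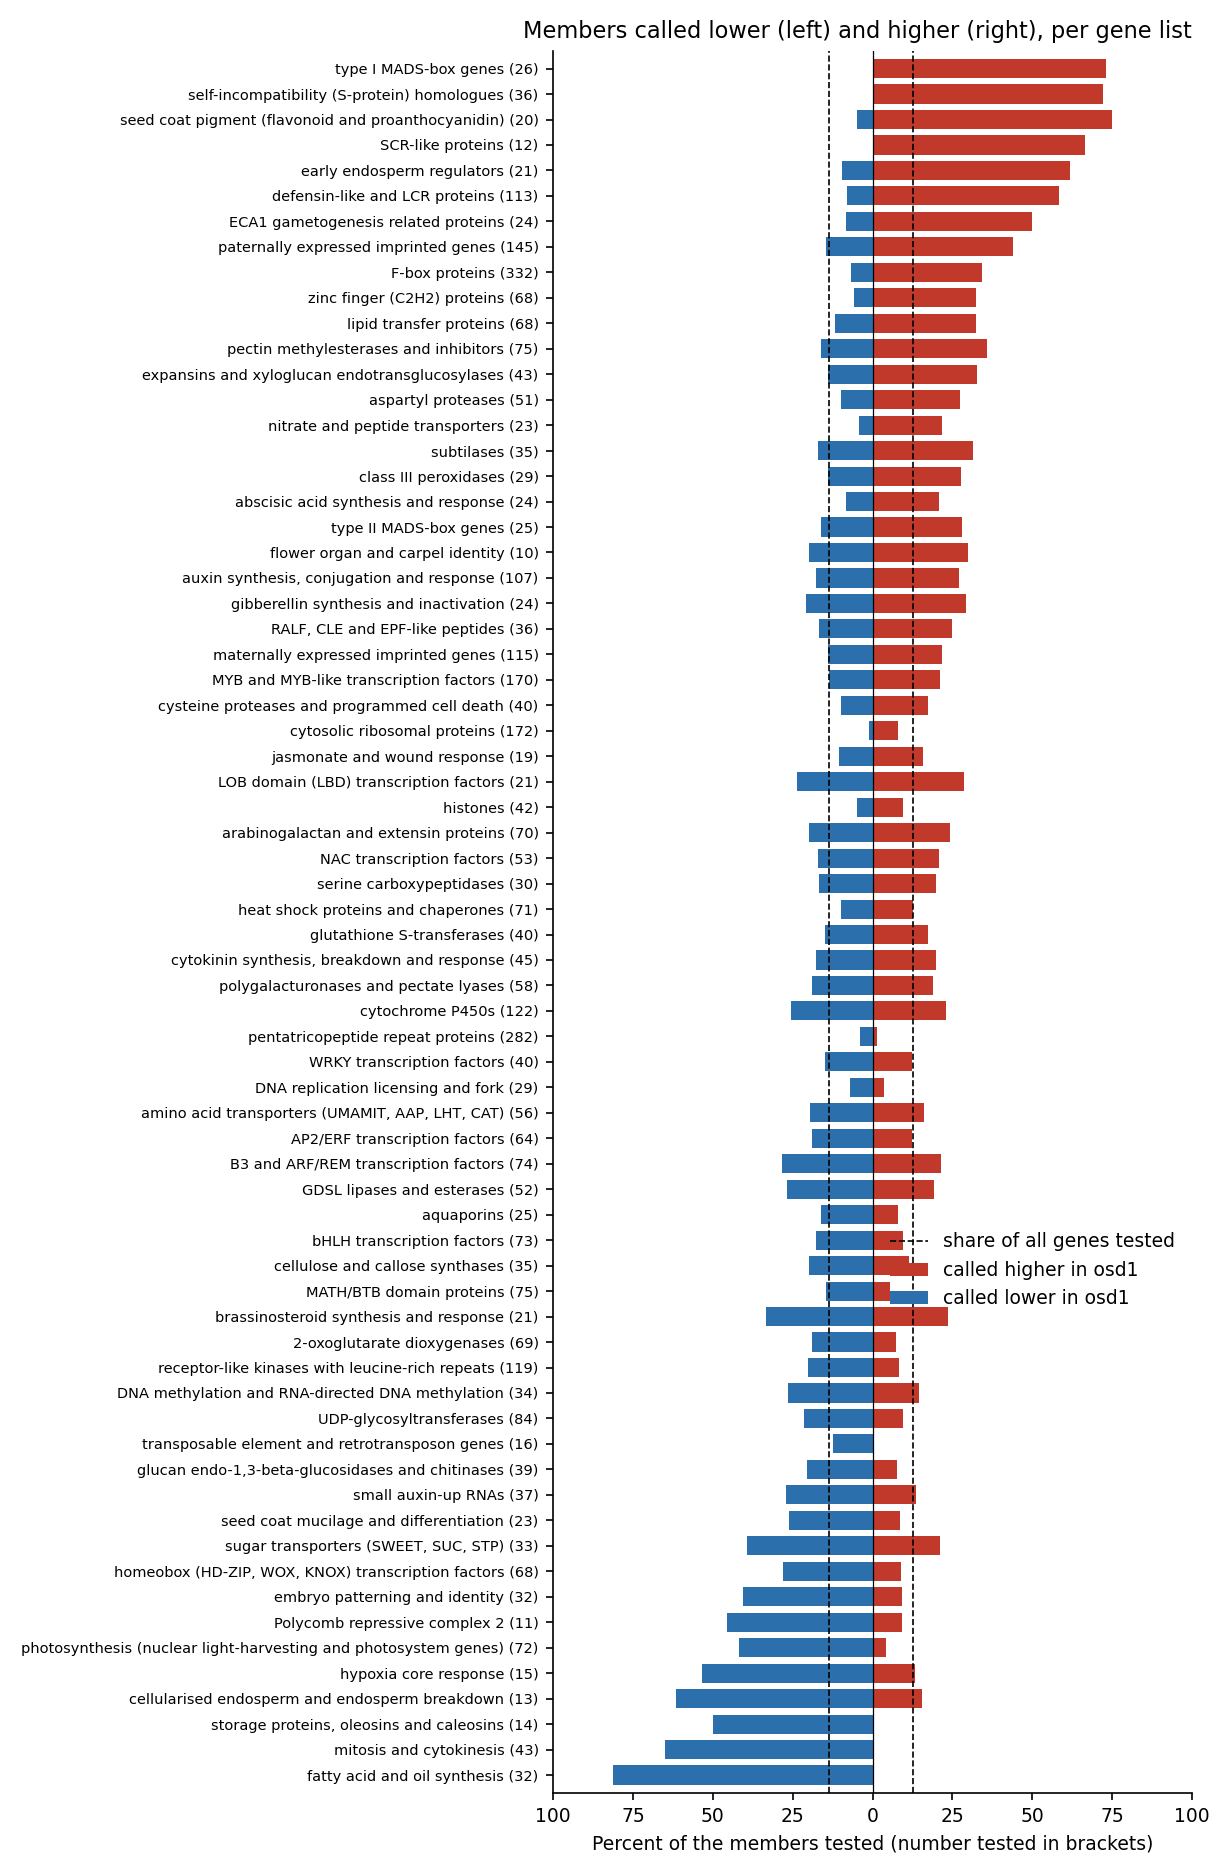
Percent of the members tested that were called higher (right, red) or lower (left, blue) in *osd1*, for each gene list with at least 10 members tested, whose number stands in brackets. The dashed lines mark the 12.8% and 13.6% of all genes tested that were called higher and lower, and the bars run from type I MADS-box genes at the top to fatty acid and oil synthesis at the bottom.

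Most of the genes that changed were not bound by PHE1, but only 8.06% of all genes tested were bound. Binding was measured in other samples, by ChIP-seq of a PHE1-GFP reporter in siliques collected 2 DAP. A gene was taken as bound where its annotated start was the nearest one to the centre of a region shared by both peak lists, within 1500 bp upstream to 500 bp downstream. Of 1722 such genes, 1599 passed the filter. Among them 549 were called higher, or 34.3%, against 10.9% of the genes not bound and 12.8% of all genes tested. The share called lower was 13.1% of bound genes and 13.6% of the others. Of all the genes called higher, 1994 or 78.4% were not bound, and of those called lower 92.2%. Bound genes thus made up 21.6% of the genes called higher and 7.8% of those called lower, against 8.06% of all genes tested. The bound risers had a median log2 difference of 2.25 against 1.29 for the risers not bound, while the fallers had -1.19 and -1.24. Among rises by over 3 on the log2 scale, 191 genes were bound and 252 were not, and among falls of that size 12 and 228. Without wt replicate 1, 233 bound genes were called higher, 60 bound genes lower and 455 genes not bound higher. Without wt replicate 2 these counts were 293, 81 and 746.

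**Figure D5:**
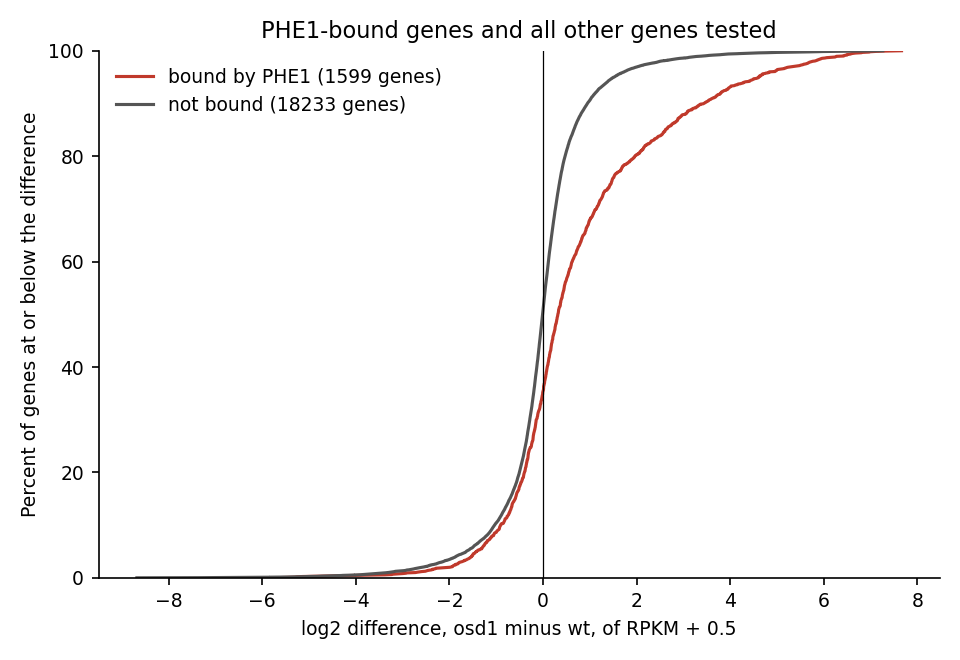
Cumulative percent of genes (y axis) at or below a given log2 difference between *osd1* and wt (x axis), for the 1599 genes bound by PHE1 and the 18233 genes not bound that passed the filter. The curves run together on the falling side and part on the rising side, where 34.3% and 10.9% were called higher.

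The largest rises without binding were those of *GH9B9*, *EXPA23*, *EXPA21*, *AT5G46810* and *AT4G32378*. *AT5G46810*, which encodes a DUF239 protein, had 0.653 and 0.553 RPKM in wt and 261 and 84.8 RPKM in *osd1*. By list, 14 of the 15 seed coat pigment genes called higher were not bound, where 78.4% of all genes called higher were not. Only 2 of the 20 pigment genes tested were bound, and 1 of them rose. Of the 66 defensin-like and LCR genes called higher 42 were not bound, and 24 of the 37 bound members tested rose. The expansin and the ribosomal list had no bound gene among those tested, where 8.06% of all genes tested were bound. The same held for other lists, such as embryo patterning, DNA replication, storage proteins, and glucosidases and chitinases. Of the 210 bound genes called lower, the 5 with the largest falls were *DTA2*, *AT1G12080*, *LCR39*, the acyltransferase gene *AT3G44830* and *AT3G61680*. *DTA2* had 92.5 and 77.6 RPKM in wt and 0.692 and 2.23 RPKM in *osd1*. *LCR39* had 65.2 and 48.9 RPKM in wt and 0.486 and 1.74 RPKM in *osd1*. *AT3G44830* had 21.2 and 17.9 RPKM in wt and 0 and 0.146 RPKM in *osd1*. *AT3G61680* had 27.2 and 14.7 RPKM in wt and 0.287 and 0.221 RPKM in *osd1*. *WRI1* and *HIK*, described above, were bound too.

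The DNA letters at the bound sites were looked at for risers and fallers alike. MADS-box factors bind the CArG-box, an A/T-rich core between a pair of C and a pair of G. Only this exact form was searched for. The paper reported CArG-box-like motifs, including a partly degenerate form, in most PHE1 binding sites, and those motifs were not searched for. Sites are shown for 3 bound genes that rose and 3 that fell, to let the letters be compared across directions. They were chosen among the 8 of 63 bound named genes that had a match in their shared region. They are given 5′ to 3′ on the strand of the gene, on TAIR10 as RefSeq holds it, with the CArG-box in capitals.
AT5G15000, rose, chr5:4854507-4854536, plus strand: ttggaatttcCCTTTAAAGGttttcaaaaa
AGL23, rose, chr1:24281165-24281194, plus strand: tgtatctaagCCTTAAATGGtaatttataa
SCRL5, rose, chr1:22460183-22460212, plus strand: gatgatttatCCAATTTTGGtttgttaaac
WRI1, fell, chr3:20114066-20114095, plus strand: acactgaagaCCTAATTTGGtataatacag
LCR39, fell, chr3:8267453-8267482, minus strand: actttagttaCCATATTTGGtctcaaatct
DTA2, fell, chr2:18865973-18866002, plus strand: cataggaataCCAAATATGGatgaccaaat
The sites lay 354, 158, 168, 408 and 882 bp before the annotated start of the first 5 genes, and 64 bp after that of *DTA2*. In 300 bp around the centre of a shared region, a CArG-box was present in 8.87% of the 1962 regions assigned to genes, read on both strands, which for this palindrome are the same. It was present in 7.45% of the 631 regions of genes called higher and in 10.2% of the 244 regions of genes called lower, and in 3.12% of the stretches of the same length before the 19742 tested genes with an annotated position. The box was found at regions of both kinds of gene.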

How the data were processed

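The poly(A) RNA-seq libraries of whole seeds were compared as the authors processed them. Per the study's methods and the submitters' processing notes, the authors mapped reads with TopHat2 2.1.0 to TAIR10 masked for ribosomal RNA genes, reported 1 place per multi-mapping read, and deposited RPKM per gene and library. The deposited peak start and end positions came from Bowtie 1.2.2 and MACS2 2.1.1, called per replicate. Strand use in counting is not given in the sources used here, so antisense overlaps cannot be told apart. The labels and the methods name different sequencers.

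Genes with a mean of at least 0.5 RPKM in wt or *osd1* were fitted as log2(RPKM + 0.5) with limma 3.58.1 in R 4.3.3 (eBayes with trend, all 6 libraries, 3 residual degrees of freedom), with Benjamini-Hochberg adjustment and a threshold of 0.05. Differences and folds on this scale understate the change of low genes. Folds of means are given without the pseudocount. Values are log2 differences ± SE from the fit. With 2 libraries a group, p-values measure the spread between these libraries. Low values came out as whole multiples of 1 read in 38.1% to 42.6% of genes (tolerance 0.05 reads, 10% by chance), too few to recover counts. Peaks, sequence stretches and figures used Python 3.11.15, numpy 2.4.6, pandas 2.3.3 and matplotlib 3.10.9. Sequence and positions came from RefSeq's TAIR10.1, whose nuclear chromosomes are those of TAIR10. The table held 0 columns of other samples, and 52 symbols of the 71 gene lists were not matched to it.

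Named genes were *PHE1*, *PHE2*, *OSD1* and *PI*, the 12 largest called rises and falls on the log2 scale, the 8 largest in RPKM, the 5 largest rises of genes not bound and falls of bound genes, and up to 4 members per list with the largest called differences. Gene lists and members were chosen with earlier results of these data known. Alternatives were the pseudocount, the filter, scaling, the libraries and covariates in the fit, a rank product test, the definition of binding and leaving out each library.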

Additional observations from a re-analysis of the deposited data

How the results depend on the processing

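All named genes that could be fitted kept their direction under every alternative. For called genes this was fixed in advance where only a library was left out, because their crosses did not overlap. Of the 289, 286 and 285 stayed called with a pseudocount of 0.1 and 1, 287 with median-of-ratios scaling, 275 with only the wt and *osd1* libraries, 277 without the trend, 166 without wt replicate 1 and 209 without wt replicate 2. Leaving out each library in turn gave 688 to 2313 genes higher and 741 to 2602 lower, 233 to 536 bound genes higher and 60 to 196 lower, and 455 to 1777 genes not bound higher. The fits without a *phe1 phe2 osd1* library were chosen after seeing the data. Lists with at least 10 members tested and at least 25% of them called in 1 direction numbered 39, 10 to 40 with a library left out, 22 with no filter on low values and 1 by the adjusted rank product. The rank product at an unadjusted p under 0.05 gave 1701 genes higher, 1729 lower, 95 bound genes lower and 1290 genes not bound higher. With Benjamini-Hochberg adjustment it gave 77 higher, 68 lower, 35 bound genes higher, 3 bound genes lower and 42 genes not bound higher, and 35 of the 289 named genes were called. The cause of these differences was not tested.

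Replicate numbers were not taken to pair the libraries. The deviations of same-numbered libraries correlated at -0.005 between wt and *osd1*, -0.012 between wt and *phe1 phe2 osd1* and 0.179 between *osd1* and *phe1 phe2 osd1*. With the replicate number as a block, 2576 genes were higher and 2727 lower, and among bound genes 552 were higher and 222 lower, and 281 of the 289 named genes stayed called.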
